A study of Mus musculus with 16 samples.

Results

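The response of white adipose tissue to halofuginone was compared with the response of liver, gene by gene, over all 16 libraries of the study. Mice with diet-induced obesity had received intraperitoneal halofuginone at 100 μg per kg of body weight (labelled H100) or vehicle (labelled HFD) every 2 days, and tissue was collected after 8 weeks. The libraries came from vehicle liver (n = 5), treated liver (n = 5), vehicle fat (n = 3) and treated fat (n = 3). Every group, the controls included, thus came from obese mice, and no lean group was analysed here. Strain, sex, age, the fat depot and whether liver and fat came from the same mice are not given in the labels, which also do not say that replicates were separate animals, so p-values measure the spread between these samples only. The members were all genes in the count tables of both tissues. Of 22322 genes, 14853 passed the filter on low counts and were tested. Of these, 11166 had a mean of at least 1 CPM (a count scaled to a common library size) in an arm of each tissue and are called measurable in both tissues.

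Halofuginone inhibits glutamyl-prolyl-tRNA synthetase (Eprs), the enzyme that charges tRNA with proline. Uncharged tRNA activates the kinase GCN2, which phosphorylates the initiation factor eIF2α, lowers general translation and favours translation of ATF4, a transcription factor that switches on genes for amino acid synthesis, amino acid import and tRNA charging. The compound is also known for lowering collagen synthesis. Liver carries out most gluconeogenesis, bile acid synthesis and synthesis of plasma proteins, while white fat stores triglyceride and, in obesity, is rich in macrophages.

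For each gene, the log2 fold change of treated over vehicle in fat minus the log2 fold change in liver is called the contrast, so a positive contrast marks a treated-to-vehicle ratio that was higher in fat. CPM values are scaled by TMM factors computed over all 16 libraries. Unless another tool is named, adjusted p-values are from the quasi-likelihood test of edgeR, corrected by the Benjamini-Hochberg method over the 14853 genes, and a gene is called at an adjusted p under 0.05. Libraries held 20309956 to 31980683 counts in liver and 17070614 to 21387799 in fat, and a level of 3 counts corresponds to 0.133 to 0.203 CPM in liver and 0.0812 to 0.110 CPM in fat, counting error only. The labelled tissues matched their markers: the 25 hepatocyte genes summed to 161009 to 301844 CPM in liver libraries and to 1138 to 2987 CPM in fat, and the 22 mature adipocyte genes to 21246 to 33587 CPM in fat. Where 2 ranges or lists are given for a tissue, vehicle comes first. Treated liver replicate 1 stood apart. On the first principal component of the liver libraries that library lay at -23.1, beside the vehicle libraries at -33.7 to -26.4 and away from the other treated libraries at 29.5 to 55.5, so each main count is given with and without it. Vehicle fat replicate 2 lay at -55.9 on the first component of the fat libraries, where the other 5 lay between -17.1 and 43.9. Bulk RNA cannot tell fewer cells of a type from less RNA per cell.

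The drug effect differed between the tissues in 141 genes, 0.949% of those tested, with 62 positive (0.417%) and 79 negative (0.532%) contrasts. Without treated liver replicate 1 the count was 1053 genes, 438 of them positive. With library size alone as the scaling, which moved the median effect of all genes to 0.15 in liver and 0.07 in fat on the log2 scale, 49 contrasts were positive and 86 negative. In the same fit 2193 genes (14.8%) were called in liver and 334 (2.25%) in fat, and 1870 (12.6%) had a called mean effect over both tissues. Without treated liver replicate 1 these counts were 4070, 664 and 3431. The mean effects were higher in 926 genes (6.23%) and lower in 944 (6.36%), or in 666 and 1076 with DESeq2 size factors and 1824 and 637 with library size alone. Of the liver calls 1213 (8.17%) were higher and 980 (6.6%) lower, but 919 were higher and 1113 lower with DESeq2 size factors and 2362 against 655 with library size alone. In fat 88 (0.592%) were higher and 246 (1.66%) lower, or 85 and 149 with library size alone. The fat calls rest on the spread estimated over both tissues: with the fat libraries fitted alone 0 genes (0%) were called (edgeR, lowest adjusted p = 0.0887, 1881 genes at an unadjusted p under 0.05), while liver fitted alone gave 2850 of 12311 (23.2%). Across the 11166 genes measurable in both tissues, the log2 fold changes in fat and liver had a Pearson correlation of 0.25 and a Spearman correlation of 0.29, a description over genes, which are not independent. Genes called in both tissues moved the same way in 62 cases and in opposite ways in 8.

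**Figure D1:**
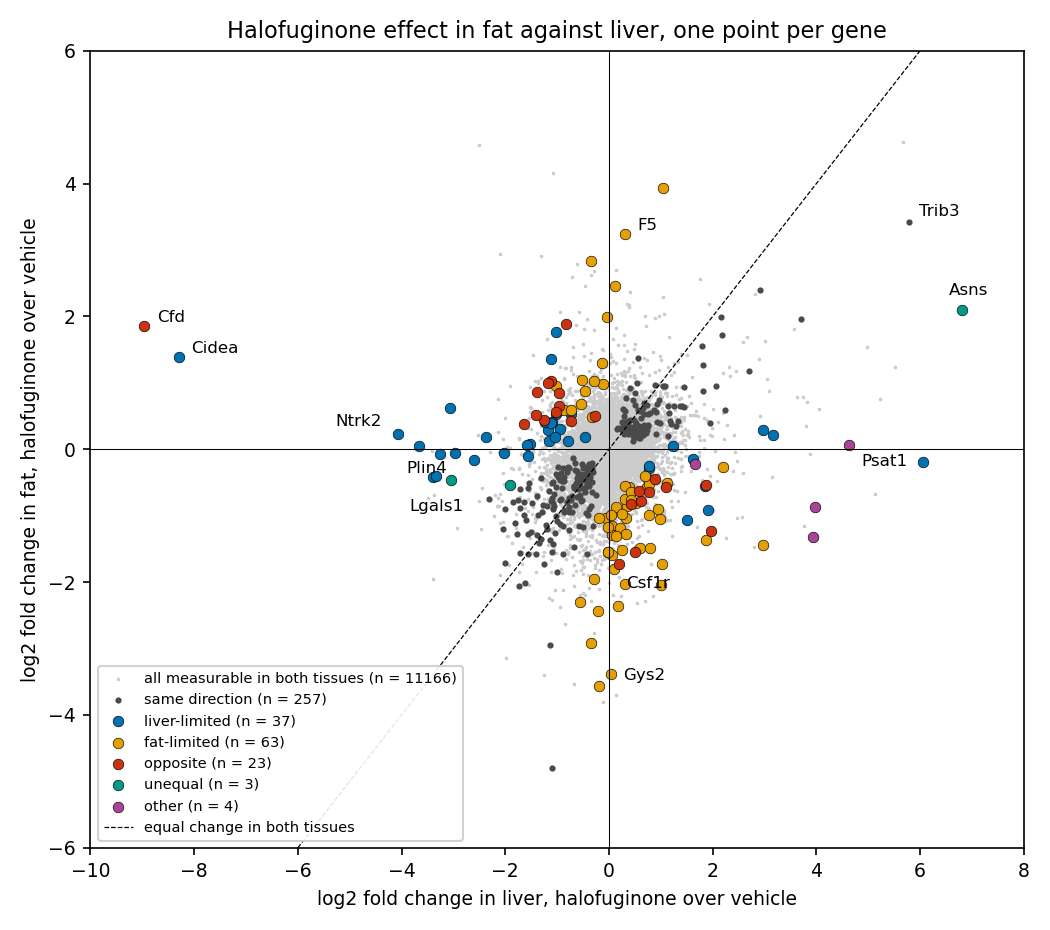
Log2 fold change of halofuginone over vehicle in fat (vertical axis) against liver (horizontal axis), with 1 point for each of the 11166 genes measurable in both tissues, genes with a called contrast coloured by class and same-direction genes in dark grey. The dashed line marks equal change in both tissues: 103 of the 130 called genes measurable in both tissues differ in sign between the tissues.

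The 141 genes were sorted by whether treated and vehicle libraries overlapped in each tissue. Of the 130 called genes measurable in both tissues (1.16% of 11166, with 57 or 0.51% positive and 73 or 0.654% negative), 23 (0.206%) were opposite, with treated libraries all above vehicle in 1 tissue and all below in the other. Another 37 (0.331%) were liver-limited (the arms were apart in liver and overlapped in fat) and 63 (0.564%) were fat-limited (the reverse). In 3 genes (0.0269%) both tissues moved the same way by unequal amounts, and in 4 (0.0358%) the arms overlapped in both tissues. Any non-overlap, over all genes measurable in both tissues, was seen in 4.96% (treated higher) and 6.67% (treated lower) in liver, in 10.9% and 9.48% in fat, in both tissues with the same sign in 2.33% and in both with opposite signs in 0.331%. Class membership is a description. Arms of 3 libraries, as in fat, come apart without any effect more readily than arms of 5, as in liver. The sizes of the fat-limited and liver-limited classes are therefore not comparable. The remaining 11 called genes were under 1 CPM in both arms of at least 1 tissue. Shared responses were counted separately, as genes with a called mean effect, the same sign and arms apart in both tissues: there were 257 (2.3%), 112 (1%) higher and 145 (1.3%) lower, or 851 without treated liver replicate 1. That split also moves with the scaling, to 88 higher and 164 lower with DESeq2 size factors and to 310 and 57 with library size alone.

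Among shared responses, genes of the amino acid response were higher in both tissues. As a background for the list counts below, 6.23% of all genes tested were called higher and 6.36% lower by the mean effect. In liver these shares were 8.17% and 6.6%, and in fat 0.592% and 1.66%. Of the 36 measurable genes in the list of ATF4 targets and regulators, 22 rose by the mean effect and 0 fell, with a list median of 1.27 in liver and 0.97 in fat on the log2 scale, against 0.03 and 0.02 over all genes. By tissue, in liver 20 rose and 1 fell, and in fat 7 rose, a count that went from 1 (without vehicle fat replicate 1) to 15 (without treated liver replicate 1) when single libraries were left out. The mean effect of Atf4 itself was 0.95 (SE 0.17, adjusted p = 0.00441), with 0.77 in liver and 1.12 in fat. Atf5, a related factor that ATF4 induces, stood in fat at 41.5, 54.1 and 34.0 CPM in vehicle replicates 1 to 3 and at 221, 171 and 120.4 CPM in treated replicates 1 to 3. In liver it stood at 191, 159.7, 171, 169 and 166 CPM in vehicle and 212, 769.9, 876, 1165 and 822 CPM in treated replicates 1 to 5. All treated libraries lay above all vehicle libraries in both tissues, and the log2 fold changes were 2.17 in liver and 1.98 in fat (contrast -0.18, SE 0.50, adjusted p = 0.927).

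Trib3, a pseudokinase that restrains Akt and ATF4, had the largest mean effect among the named shared genes, 4.60 (SE 0.61, adjusted p = 0.000658). It went from 3.71–7.73 to 7.89–483 CPM in liver and from 4.90–9.38 to 27.6–110.4 CPM in fat, and its contrast of -2.37 was not called (adjusted p = 0.28). Cyb5r1, a cytochrome b5 reductase, showed log2 fold changes of 3.71 and 1.97, Slc7a5, a subunit of a large neutral amino acid transporter, 2.19 and 1.72, and Aldh18a1, which makes the precursor of proline from glutamate, 1.79 and 1.55, liver first. Fgf21, a hormone released by stressed liver, lay at 12.7, 7.29, 23.1, 20.2 and 23.4 CPM in vehicle liver and 29.4, 66.6, 195, 199.6 and 164 CPM in treated liver. The fat libraries were at 0.659, 0.417 and 0.582 CPM in vehicle and 4.28, 3.57 and 0.908 CPM in treated libraries. Both tissues were higher under the drug without overlap, by 2.91 and 2.39, although the level in vehicle liver was 31.4 times that in vehicle fat. Ddit3 (CHOP), a stress transcription factor, changed by a mean of 2.58 (SE 0.43, adjusted p = 0.00278). Gdf15, another stress hormone, had a log2 fold change of 1.97 (SE 0.41, adjusted p = 0.0223) in fat and 0.89 (SE 0.31, adjusted p = 0.0662) in liver, and the contrast of 1.08 was not called (adjusted p = 0.309).

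Transcripts of the tRNA-charging enzymes were also higher. Of 20 measurable cytosolic synthetase genes 14 rose by the mean effect, 0 fell and 0 had a called contrast, with medians of 0.46 in liver and 0.65 in fat, but 7 rose when treated fat replicate 1 was left out. Eprs, the target of the drug, lay at 180.2, 139, 165, 131 and 153 CPM in vehicle and 144, 399.9, 445, 406 and 432 CPM in treated liver. In fat, Eprs was at 90.5, 53.3 and 92.2 CPM in vehicle and 233, 214 and 137 CPM in treated libraries. Its effect was 1.25 in liver and 1.31 in fat, a mean of 1.28 (SE 0.22, adjusted p = 0.00294) with a contrast of 0.06. Treated liver replicate 1, at 144 CPM, lay within the vehicle range.

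The promoters of 3 genes of this list are shown because their responses span the range from shared to unequal: Asns and Fgf21 hold the motif searched, and Psat1 does not. Sequences are from RefSeq (assembly GRCm38.p6, which is not the mm39 build of the processed files), matched by gene symbol, each 250 bases ending just before the annotated start site and read 5′ to 3′ on the gene's strand, which is the minus strand for all 3. The windows are chr6:7693210-7693459 for Asns, chr7:45615491-45615740 for Fgf21 and chr19:15925060-15925309 for Psat1. Capitals mark TGATGNAA, the core of the element that ATF4 binds with C/EBP partners, searched on both strands.
Asns: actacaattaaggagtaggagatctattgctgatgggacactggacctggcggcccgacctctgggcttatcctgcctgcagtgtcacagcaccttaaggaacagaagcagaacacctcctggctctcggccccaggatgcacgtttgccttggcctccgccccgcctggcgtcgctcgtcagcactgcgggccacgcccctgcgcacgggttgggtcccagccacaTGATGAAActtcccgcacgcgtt
Fgf21: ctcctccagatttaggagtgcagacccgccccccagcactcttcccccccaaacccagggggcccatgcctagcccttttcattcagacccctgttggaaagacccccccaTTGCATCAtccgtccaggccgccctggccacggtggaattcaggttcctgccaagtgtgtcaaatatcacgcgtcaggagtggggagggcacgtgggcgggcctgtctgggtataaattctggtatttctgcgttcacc
Psat1: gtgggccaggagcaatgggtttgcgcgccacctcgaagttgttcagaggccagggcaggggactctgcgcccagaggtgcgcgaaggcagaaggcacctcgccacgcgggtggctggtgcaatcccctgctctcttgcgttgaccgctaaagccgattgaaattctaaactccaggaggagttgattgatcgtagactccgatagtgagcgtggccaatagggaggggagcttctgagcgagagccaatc
The match in Asns lies 23 bases before the start site, and the match in Fgf21 starts 139 bases before it on the other strand. In windows of 300 bases, which add 50 after the start, the motif was present in 1219 of 27025 genes (4.51%), in 10 of the 30 ATF4 list genes with a promoter in the table (33.3%), and in 3 of the 9 named ones, the third being Trib3. A match is a description of letters, and no match in a window says nothing about binding elsewhere.

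Asns and Psat1 started from far lower levels in liver than in fat and had the most negative contrasts of the list. Asns, asparagine synthetase, lay at 0.428, 1.82, 0.817, 0.602 and 0.665 CPM in vehicle liver and at 8.87, 174, 75.1, 117 and 95.4 CPM in treated liver. In fat it lay at 29.3, 34.1 and 18.7 CPM in vehicle and 182, 87.8 and 83.9 CPM in treated libraries. Treated libraries exceeded vehicle libraries in both tissues, by 6.81 (SE 0.68, adjusted p = 5.42e-05) in liver and 2.10 (SE 0.66, adjusted p = 0.11) in fat (contrast -4.70, SE 0.92, adjusted p = 0.0323). The mean level rose by 93.2 CPM in liver and was 90.4 CPM higher in fat, and the level in fat was 31.6 times that in liver in vehicle libraries and 1.25 times in treated libraries. Psat1, the aminotransferase of serine synthesis, lay at 0.748, 1.15, 2.14, 0.653 and 0.443 CPM in vehicle liver and 0.789, 26.9, 39.8, 26.7 and 29.1 CPM in treated liver, where replicate 1 again fell within the vehicle range. Fat held 87.5, 105 and 50.8 CPM in vehicle and 88.8, 71.3 and 93.0 CPM in treated libraries. Liver thus rose by 4.64 (SE 0.69, adjusted p = 0.00124) and fat showed 0.06 (SE 0.68, adjusted p = 0.986) (contrast -4.58, SE 0.98, adjusted p = 0.0412), and the ratio of fat to liver went from 79.1 to 3.42. Leaving out each library in turn kept the call for Asns in 7 of 16 fits and for Psat1 in 1. Shmt2, the mitochondrial serine hydroxymethyltransferase and an ATF4 list gene, went the other way. It fell in liver from 224–293 to 89.0–185 CPM, a log2 change of -1.10 (SE 0.19, adjusted p = 0.00235). It stood at 15.1–22.2 and 21.2–29.9 CPM in fat (contrast 1.51, SE 0.31, adjusted p = 0.0331, called in 5 of 16 fits). Without treated liver replicate 1, 8 genes of the list had a called negative contrast in place of 2, and without vehicle liver replicate 1 the number was 0.

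Most genes of the collagen list were lower by the mean over both tissues. That list holds collagens, their processing enzymes and other matrix genes such as Fn1, Fbn1, Tnc, Dcn, Lum, Timp1 and Mmp2. Of its 36 measurable genes, 26 fell by the mean effect and 0 rose, with medians of -0.80 in liver and -1.07 in fat. The same-direction class held 10 of them (Col1a1, Col3a1, Col5a3, Col6a1, Col6a2, Col6a3, Fstl1, Loxl2, P4ha1 and Sparc). Fat calls in the list numbered 11, or 2 without treated fat replicate 2. Col1a1, a chain of type I collagen, lay at 7.75, 14.6, 7.60, 16.5 and 8.51 CPM in vehicle and 5.26, 2.96, 3.29, 1.78 and 2.86 CPM in treated liver. In fat, where it was 28.8 times as abundant, it lay at 236, 275 and 439 CPM in vehicle and 117, 126 and 149 CPM in treated libraries. The arms did not overlap in either tissue and the fold changes, -1.77 and -1.28, gave a contrast of 0.50 (SE 0.44, adjusted p = 0.645). Col3a1 (-1.71 and -1.56) and Loxl2, a collagen cross-linking oxidase (-1.31 and -1.35), were as close between the tissues. Fibroblast and stellate cell markers, whose sum was 510.1 to 650.1 CPM in vehicle and 386 to 542 CPM in treated liver and overlapped between the arms in fat (4733 to 11694 and 6656 to 8947 CPM), had 3 of 12 genes lower by the mean effect (1 without vehicle liver replicate 4, 5 without treated fat replicate 3). Dcn and Lum are in both lists. The part of the fibroblast and stellate cell markers in the matrix result was not tested.

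Other shared decreases had small contrasts. Aldh1a7, an aldehyde dehydrogenase, changed by -1.74 (SE 0.28, adjusted p = 0.00171) in liver and -2.05 (SE 0.37, adjusted p = 0.0093) in fat, from 193–263 to 31.2–109 CPM and from 61.8–109.9 to 13.1–28.6 CPM. Robo1, a guidance receptor, changed by -1.35 and -1.42, and Gamt, the last enzyme of creatine synthesis, had effects of -2.0 and -1.71 (liver first, fat adjusted p = 0.12). Of 24 cholesterol synthesis genes 9 fell by the mean effect and 0 rose, with medians of -0.77 in liver and -0.45 in fat. That count was 6 without treated fat replicate 1 and 13 without treated liver replicate 1. By tissue, 10 of the list were called lower in liver and 2 in fat, or 0 in fat without treated fat replicate 1. Nsdhl, an enzyme late in that pathway, went from 14.1–28.5 to 4.70–9.74 CPM in liver and from 15.6–23.8 to 7.01–9.37 CPM in fat. Acss2, which makes cytosolic acetyl-CoA from acetate, changed by -1.20 in both tissues. Of 14 cell cycle genes 8 fell by the mean effect (4 without treated fat replicate 2), with medians of -0.50 in liver and -1.12 in fat, and Cdk1, the kinase of mitotic entry, changed by -1.61 and -2.01. Over the 257 same-direction genes the median absolute effect was 0.68 in liver and 0.55 in fat, 177 had the larger effect in liver and 80 in fat, and 225 were called in liver but 41 in fat.

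**Figure D2:**
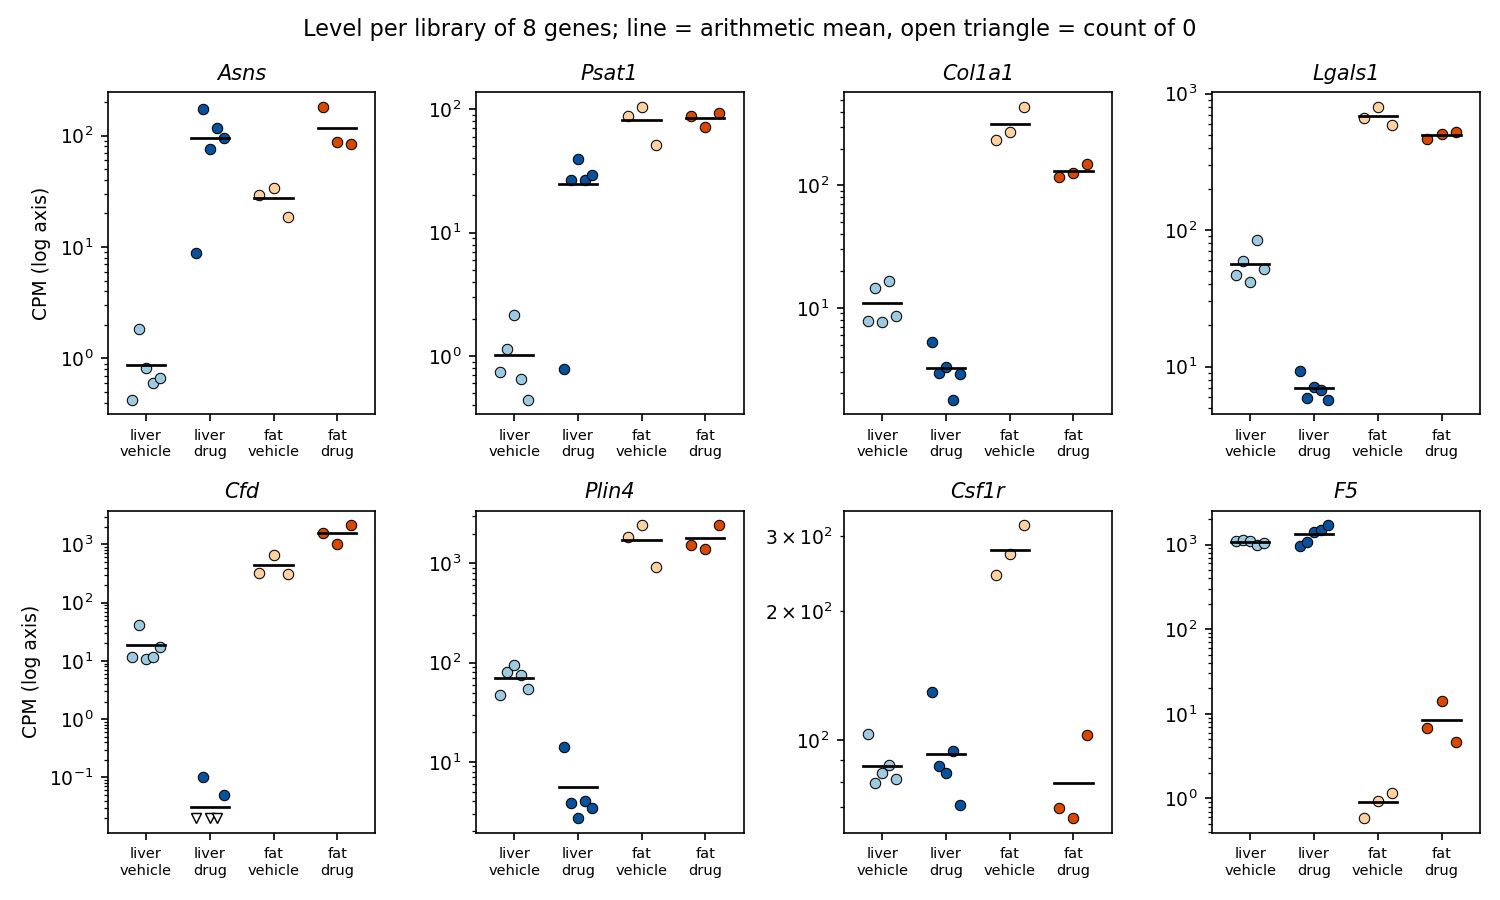
CPM on a log axis for 8 genes, with 1 point per library in vehicle and treated liver (n = 5 each) and vehicle and treated fat (n = 3 each), a line at the arithmetic mean, and open triangles for counts of 0. Asns is higher in all treated than in all vehicle libraries of both tissues, while Cfd is at or under 0.102 CPM in treated liver and at 1027–2133 CPM in treated fat.

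With all 16 libraries, decreases outnumbered increases among the liver-limited genes: 27 (0.242%) had a positive contrast (lower in treated liver) and 10 (0.0896%) a negative one. That balance rested on treated liver replicate 1. Without it, 265 of 589 liver-limited genes had a positive contrast, so most then had a negative one. With all 16 libraries the class held 2 genes of the adipocyte marker list, Plin4 and Cidea. Plin4, a lipid droplet coat protein, lay at 47.1, 81.0, 95.2, 75.4 and 53.6 CPM in vehicle and 14.0, 3.88, 2.71, 4.03 and 3.46 CPM in treated liver. In fat, Plin4 was at 1855, 2415 and 915 CPM in vehicle and 1536, 1395 and 2429 CPM in treated libraries. It changed by -3.66 (SE 0.45, adjusted p = 0.000373) in liver and differed by 0.05 in fat (contrast 3.71, SE 0.67, adjusted p = 0.0229). Cidea, a droplet fusion protein, gave 2522 counts in the vehicle and 8 in the treated liver libraries, a ratio of 324 (95% interval 164 to 750.2, counting error only). In fat it lay at 2.96, 2.92 and 1.75 CPM in vehicle and 18.7, 0.379 and 1.04 CPM in treated libraries, so that treated replicate 1 alone was above the vehicle range (contrast 9.68, SE 1.55, adjusted p = 0.00903).

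Cfd, complement factor D (adipsin), was in the opposite class. It lay at 11.8, 41.1, 10.8, 11.7 and 17.4 CPM in vehicle liver and at 0, 0.102, 0, 0 and 0.0502 CPM in treated liver, at least 94.2-fold lower against a level of 3 counts in the shallowest treated library. In fat it lay at 325, 665 and 314 CPM in vehicle and 1577, 1027 and 2133 CPM in treated libraries, higher in all 3 treated libraries, although the fat effect of 1.86 (SE 0.49, adjusted p = 0.0606) was not called. The contrast was the largest positive one among the genes at 5 CPM or more in each tissue (contrast 10.82, SE 0.92, adjusted p = 4.64e-05). Since the treated liver libraries hold at most 4 counts of either gene, the fitted values of Cfd and Cidea depend on the prior count. Of 14 measurable adipocyte markers, 5 had a called positive contrast (Cfd, Cidea, Plin4, Fabp4 and Pparg; 3 without vehicle liver replicate 2), 7 fell in liver, 0 were called in fat, and the list median was -1.32 in liver and 0.29 in fat. The whole list of 22 markers summed to 5003 to 6488 CPM in vehicle liver and 2221 to 5411 CPM in treated liver, with Lep and Plin1 at 0 in every vehicle liver library and Adipoq, Aqp7, Lep and Retn at 0 in every treated one. Fabp4, a fatty acid carrier, had a contrast of 2.01 (adjusted p = 0.0364), and Pparg, the adipocyte nuclear receptor, 1.71 (adjusted p = 0.0438).

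Further genes fell in liver while their arms overlapped in fat. Ntrk2, the BDNF receptor, lay at 15.6, 10.4, 11.0, 17.0 and 6.91 CPM in vehicle and 0.460, 0.562, 0.533, 1.15 and 0.853 CPM in treated liver, with 90.1–180.3 and 112–211 CPM in fat (contrast 4.30, SE 0.47, adjusted p = 0.000872). Mogat1, which acylates monoacylglycerol, changed by -3.39 (SE 0.41, adjusted p = 0.00035) in liver and showed -0.42 in fat (contrast 2.97, SE 0.60, adjusted p = 0.033). Hspa1a, an inducible Hsp70 chaperone, changed by -3.26 (SE 0.45, adjusted p = 0.000816) in liver and showed -0.07 in fat, and its neighbour Hspa1b, chosen after its values were seen, had a contrast of 2.91 (adjusted p = 0.00722). These are near-identical copies, so reads could be split between them. Atp6v0d2, a subunit of the vacuolar proton pump, fell in liver from 4.84–7.59 to 0.194–2.04 CPM and stood at 103–475 and 188–820.3 CPM in fat. Elovl5, an elongase of polyunsaturated fatty acids, changed by -1.18 (SE 0.17, adjusted p = 0.00124) in liver and showed 0.29 in fat (contrast 1.47, SE 0.28, adjusted p = 0.0291). Ntrk2, Plin4 and Cidea kept their call without any 1 library, while Elovl5 kept it in 9 of 16 fits, Mogat1 in 7, Hspa1a in 5 and Atp6v0d2 in 3.

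The 10 liver-limited genes with a negative contrast were higher in treated liver. Lepr, the leptin receptor, chosen after its values were seen, lay at 6.73, 5.27, 8.73, 4.77 and 5.81 CPM in vehicle and 23.9, 54.7, 49.4, 81.6 and 69.2 CPM in treated liver. In fat, Lepr was at 4.76, 2.33 and 3.29 CPM in vehicle and 5.21, 3.87 and 3.01 CPM in treated libraries (contrast -2.93, SE 0.48, adjusted p = 0.0107, called in 16 of 16 fits). Arhgef2, a guanine nucleotide exchange factor, rose in liver from 6.28–8.38 to 8.81–81.5 CPM and stood at 55.8–61.3 and 58.1–92.1 CPM in fat (contrast -2.68, SE 0.60, adjusted p = 0.0485). Mknk1, a kinase of the cap-binding protein eIF4E, rose by 1.63 (SE 0.25, adjusted p = 0.00145) in liver with -0.15 in fat (contrast -1.78, SE 0.40, adjusted p = 0.0485). Parp4 and Slco2a1, a prostaglandin transporter, had contrasts of -1.18 and -1.06 (adjusted p = 0.0492 and 0.0421). These calls were less firm than that of Lepr: Arhgef2, Mknk1 and Parp4 each kept theirs in 1 of 16 fits and Slco2a1 in 3.

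In the fat-limited class decreases outnumbered increases, with 48 (0.43%) negative and 15 (0.134%) positive contrasts, and the negative ones had a median log2 fold change of -1.16 in fat and 0.31 in liver. The class is set by overlap, not by a test within each tissue: 42 of the 63 had a called fat effect, 22 a called liver effect (Col15a1 among them) and 5 both. In comparison, 36 of the 37 liver-limited genes had a called liver effect and 0 a called fat effect. Macrophage genes were the marker list with several members there: of 26 measurable macrophage markers, 6 had a called negative contrast (Adgre1, C1qa, C1qc, Cd9, Csf1r and Vsig4), 0 a positive one, and 9 fell in fat against 2 in liver (5 without treated liver replicate 1). Of all genes tested, 1.66% were called lower in fat and 6.6% in liver, so 2 of 26 in liver was near the general share. Csf1r, the receptor that macrophages need to survive, lay at 244, 272 and 318 CPM in vehicle and 69.4, 65.9 and 103 CPM in treated fat. In liver it lay at 103, 79.7, 83.8, 87.7 and 81.5 CPM in vehicle and 129.7, 87.0, 84.0, 94.4 and 70.6 CPM in treated libraries. The arms were far apart in fat and overlapped in liver, with effects of -1.81 (SE 0.22, adjusted p = 0.000906) and 0.09 (SE 0.17, adjusted p = 0.76) (contrast -1.90, SE 0.27, adjusted p = 0.00614).

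Adgre1, which encodes the F4/80 antigen, showed the same pattern, at 226, 209 and 268 CPM in vehicle and 83.9, 71.6 and 85.2 CPM in treated fat and at 33.5–46.6 and 28.8–57.8 CPM in liver (contrast -1.53, SE 0.27, adjusted p = 0.0202). C1qa and C1qc, chains of the first complement component, had contrasts of -1.35 and -1.16 (adjusted p = 0.0164 and 0.0113). Cd9, a tetraspanin abundant on lipid-laden fat macrophages, had a contrast of -1.59, and Vsig4, a complement receptor, one of -3.36 on a level of 3.12–6.11 CPM in vehicle fat. Stab1, a scavenger receptor, and Hfe, a regulator of iron uptake, both chosen after their values were seen, had contrasts of -1.92 and -1.66 (adjusted p = 0.00142 and 0.00675). Stab1, whose liver arms were just apart at 60.2–73.4 and 73.6–79.6 CPM, was in the opposite class. Over the list the median was -1.08 in fat and -0.13 in liver (0.01 in liver with library size alone), and the median contrast of -0.94 became -0.39 without vehicle fat replicate 3. Without treated fat replicate 2, 4 of the list were called lower in fat and 3 had a called contrast. The 28 macrophage markers summed to 8041 to 18096 CPM in vehicle fat and 6702 to 9736 CPM in treated fat, ranges that overlap, and to 1304 to 1746 and 1183 to 2063 CPM in liver. Lymphocyte markers also ran lower in treated fat, summing to 423 to 652 CPM against 694 to 1196 CPM, with 0 of 5 measurable genes called, and their part in the macrophage result was not tested.

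Genes typical of liver also entered the fat-limited class from their low level in fat. F5, coagulation factor V, lay at 0.585, 0.938 and 1.16 CPM in vehicle and 6.77, 14.1 and 4.60 CPM in treated fat, and at 980.0–1139 and 954–1693 CPM in liver. It rose by 3.24 (SE 0.38, adjusted p = 0.00085) in fat and showed 0.30 (SE 0.25, adjusted p = 0.458) in liver (contrast 2.93, SE 0.45, adjusted p = 0.00738, called in 16 of 16 fits). Gys2, the liver form of glycogen synthase, went the other way in fat, from 7.61, 6.29 and 4.52 to 0.829, 0.244 and 0.713 CPM, and stayed at 176–234 and 49.2–313 CPM in liver (contrast -3.42, SE 0.70, adjusted p = 0.0347). Tfr2, a transferrin receptor that senses iron, changed in fat by -2.03 (SE 0.43, adjusted p = 0.0226) (contrast -2.34, SE 0.52, adjusted p = 0.0478). The 25 hepatocyte markers summed to 1138 to 2963 CPM in vehicle and 1470 to 2987 CPM in treated fat, so that their summed level overlapped between the arms while F5 was higher and Gys2 and Tfr2 lower; Cyp7a1 was at 0 in every fat library.

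Of the other fat-limited genes, G0s2, an inhibitor of the lipase ATGL, lay at 62.8, 38.0 and 39.7 CPM in vehicle and 241, 195 and 120.3 CPM in treated fat, and at 107–218 and 117–210.2 CPM in liver (contrast 2.03, SE 0.40, adjusted p = 0.0323). Cd86, a costimulatory ligand of antigen-presenting cells, rose in fat from 5.48–6.69 to 15.2–59.9 CPM, against the direction of the macrophage markers named above, and showed 0.11 in liver (contrast 2.35, SE 0.51, adjusted p = 0.0428). Mreg, a vesicle transport protein, rose by 2.84 (SE 0.54, adjusted p = 0.0135) in fat (contrast 3.19, SE 0.64, adjusted p = 0.033). Mamdc2 changed by -2.92 (SE 0.47, adjusted p = 0.00632) in fat with -0.35 in liver (contrast -2.57, SE 0.58, adjusted p = 0.0486). Col15a1, a basement membrane collagen, was sorted here because its liver arms overlapped. It lay at 6.52, 3.51, 3.52, 5.37 and 5.32 CPM in vehicle and 3.68, 26.2, 19.4, 21.0 and 18.2 CPM in treated liver, an increase of 1.86 (SE 0.37, adjusted p = 0.00589). In fat, Col15a1 was at 208, 233 and 226 CPM in vehicle and 56.7, 78.6 and 124 CPM in treated libraries (contrast -3.23, SE 0.59, adjusted p = 0.0229). Of the collagen list, which does not include Col6a6, it was the only measurable gene with a called increase in liver and the only one with a called contrast. Without single libraries the call held for Adgre1 in 15 of 16 fits (lost without treated fat replicate 2), for Col15a1 in 12, for G0s2 in 8, and for Mreg in 5. It held for Gys2, Cd86 and Vsig4 in 4 each, for Mamdc2 and Cd9 in 3 each, and for Tfr2 in 2.

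In the 23 opposite genes, 13 (0.116%) were lower in treated liver and higher in treated fat, and 10 (0.0896%) the reverse. Of the 149 opposite genes found without treated liver replicate 1, 62 had a positive contrast, so most then went the reverse way. Tead1, the DNA-binding partner of YAP, lay at 19.0, 20.5, 33.3, 17.1 and 17.0 CPM in vehicle and 10.2, 12.4, 8.82, 9.27 and 8.73 CPM in treated liver. Fat libraries held 79.3, 57.9 and 58.9 CPM in vehicle and 212, 89.8 and 97.4 CPM in treated replicates, so the arms were apart in both tissues with opposite sign (contrast 2.14, SE 0.39, adjusted p = 0.0229). H2-Q10, a class I histocompatibility gene secreted by liver, changed by -1.17 (SE 0.20, adjusted p = 0.00247) in liver, from 1624–2389.6 to 689–1275 CPM, and lay at 1.68–2.53 and 2.95–5.32 CPM in fat (contrast 2.17, SE 0.34, adjusted p = 0.00892). As its close relatives of the class I family share sequence, its level in fat is uncertain. Adamts9, a matrix protease, had effects of -1.38 in liver and 0.86 in fat (contrast 2.24, SE 0.43, adjusted p = 0.0291).

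In the reverse direction, Col6a6, a collagen VI chain, lay at 0.962, 0.338, 0.314, 0.502 and 0.975 CPM in vehicle and 1.25, 5.37, 2.23, 1.52 and 2.16 CPM in treated liver. In fat, Col6a6 was at 16.4, 30.5 and 10.4 CPM in vehicle and 10.2, 7.04 and 7.13 CPM in treated libraries (contrast -3.21, SE 0.66, adjusted p = 0.0364). Itga5, the fibronectin receptor subunit, went from 17.8–24.2 to 26.4–53.0 CPM in liver and from 67.8–102 to 48.4–55.6 CPM in fat (contrast -1.42, SE 0.28, adjusted p = 0.0323). By itself the liver effect was called in 19 of the 23 opposite genes and the fat effect in 7, with 4 called in both (Ralgapa2, Dock5, Actn1 and Tmem134). Ralgapa2, a subunit of a Ral GTPase-activating complex, rose by 0.62 (SE 0.13, adjusted p = 0.0086) in liver and fell by 0.78 (SE 0.17, adjusted p = 0.0298) in fat (contrast -1.39, SE 0.22, adjusted p = 0.00892). Dock5, a Rac exchange factor, rose by 0.58 (SE 0.12, adjusted p = 0.00703) and fell by 0.63 (SE 0.16, adjusted p = 0.0498) (contrast -1.21, SE 0.20, adjusted p = 0.0107). Both kept their contrast call without any 1 library, as did H2-Q10 and Cfd, while Tead1 kept it in 14 of 16 fits, Adamts9 in 10, Itga5 in 9 and Col6a6 and Fabp4 in 6 each.

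Regardless of overlap, 8 genes were called in both tissues with opposite signs, and all 8 also had a called contrast. Tmem134, a membrane protein, was lower in liver and higher in fat. It lay at 49.7, 63.3, 45.9, 58.2 and 51.7 CPM in vehicle and 35.9, 24.9, 24.6, 27.5 and 24.4 CPM in treated liver. In fat, Tmem134 was at 65.3, 70.2 and 44.9 CPM in vehicle and 106, 99.7 and 120.3 CPM in treated libraries (contrast 1.82, SE 0.24, adjusted p = 0.00259). Actn1, a cross-linker of actin filaments, lay at 18.1–25.8 and 26.8–33.2 CPM in liver and at 89.3–137 and 60.3–68.6 CPM in fat (contrast -1.24, SE 0.22, adjusted p = 0.0192). The other 4 were in the fat-limited class because their liver arms overlapped. Mat2a, which makes the methyl donor S-adenosylmethionine, changed by -0.45 in liver and 0.88 in fat (contrast 1.33, SE 0.20, adjusted p = 0.00722). Adcy9, an adenylyl cyclase, changed by 0.39 and -0.76 (contrast -1.16, SE 0.18, adjusted p = 0.00903). Slc6a12, a transporter of betaine and GABA, changed by 0.79 and -1.48, and Gabbr2, a GABA-B receptor subunit, by 1.01 and -2.04, from 1.35–1.68 and 1.75–3.66 CPM in vehicle fat respectively (contrasts -2.28 and -3.06, adjusted p = 0.0229 and 0.0202). Apart from Ralgapa2 and Dock5, these genes were chosen after their values were seen. Without 1 library, Tmem134, Mat2a and Adcy9 kept their contrast call in 16 of 16 fits, Actn1 in 15, Slc6a12 in 13 and Gabbr2 in 15.

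The last 7 called genes measurable in both tissues belonged to none of these 3 classes. Besides Asns, Lgals1 and Rcan1 moved the same way by unequal amounts and were chosen after their values were seen. Lgals1, a galectin, lay at 46.8, 59.2, 41.5, 83.9 and 51.6 CPM in vehicle and 9.20, 5.88, 7.02, 6.71 and 5.72 CPM in treated liver. In fat, Lgals1 was at 659, 801 and 586 CPM in vehicle and 467, 505 and 519 CPM in treated libraries (contrast 2.58, SE 0.30, adjusted p = 0.00142). A gene 12.1 times as abundant in fat thus had a log2 fold change of -3.04 in liver and -0.46 in fat. Rcan1, an inhibitor of calcineurin, had a contrast of 1.37 (adjusted p = 0.0364). Besides Psat1, the arms overlapped in both tissues for Rap1gap2, a GTPase-activating protein of Rap1. It lay at 1.12, 0.608, 1.32, 1.41 and 0.665 CPM in vehicle and 0.986, 25.8, 19.7, 23.5 and 10.4 CPM in treated liver and at 28.5, 32.8 and 12.2 and 13.5, 11.5 and 15.3 CPM in fat (contrast -4.83, SE 0.90, adjusted p = 0.0254). App, the amyloid precursor, and Shc4, a signalling adaptor, both chosen after their values were seen, had contrasts of -1.89 and -5.26 (adjusted p = 0.0485 and 0.05). In treated liver, replicate 1 sat among the vehicle libraries for Psat1 and Rap1gap2.

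Some gene lists leaned the same way in nearly all members with few or no called contrasts. Over all 11166 measurable genes the contrast was positive in 5271. Interferon-stimulated genes had a positive contrast in 26 of 26 measurable members, with medians of -0.78 in liver and 0.75 in fat, but 2 were called (Isg15 and Usp18), against 0.51% of all measurable genes called positive. The number called was 0 without vehicle liver replicate 1 and 8 without treated liver replicate 1, and with single libraries left out the call held for Isg15 in 4 of 16 fits and for Usp18 in 2. In liver 5 of the 26 fell (0 and 11 without the same libraries), and in fat 0 were called. Isg15, an interferon-induced ubiquitin-like protein, lay at 10.5, 7.90, 7.04, 8.99 and 8.69 CPM in vehicle and 5.32, 3.53, 3.49, 4.30 and 4.72 CPM in treated liver. In fat, Isg15 was at 1.79, 2.47 and 1.10 CPM in vehicle and 2.00, 4.25 and 11.9 CPM in treated libraries (contrast 2.78, SE 0.58, adjusted p = 0.0397). Treated fat replicate 3 was the highest fat library for it, and without that library the list median was 0.06 in fat and the median contrast 0.74. Fatty acid oxidation genes had a positive contrast in 25 of 28 and oxidative phosphorylation genes in 32 of 33, with medians of 0.42 and 0.27 and 0 called in either list (5 of each without treated liver replicate 1). In liver 6 of the 28 and 11 of the 33 fell (4 of each with library size alone), and in fat 0 were called lower in either list. Those liver counts were 16 and 24 without treated liver replicate 1 and 3 and 4 without treated liver replicate 3. Hadh, an enzyme of the beta-oxidation spiral, changed by -1.53 (SE 0.32, adjusted p = 0.00748) in liver with -0.63 in fat, and Sdha, a subunit of complex II, by -0.71 (SE 0.15, adjusted p = 0.00787) with -0.08.

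Lists without such a lean included the fat synthesis genes, with Fasn called lower in fat and Scd1 called lower in liver. Fasn, fatty acid synthase, lay at 447, 667 and 248 CPM in vehicle and 83.3, 58.3 and 178 CPM in treated fat, a change of -2.09 (SE 0.43, adjusted p = 0.0223), with -0.39 (SE 0.32, adjusted p = 0.457) in liver. Scd1, the delta-9 desaturase, changed by -1.74 (SE 0.38, adjusted p = 0.0084) in liver and by 0.15 in fat. Neither contrast, -1.70 and 1.89, was called (adjusted p = 0.128 and 0.137). Of the 22 endoplasmic reticulum chaperones and the 19 clock genes, 0 had a called mean effect or contrast. Of 18 NRF2 and glutathione genes 5 fell by the mean effect (2 without treated fat replicate 2, 8 without treated liver replicate 1), among them Akr1b8, an aldo-keto reductase, with -0.29 in liver and -2.76 in fat (contrast adjusted p = 0.102). In the insulin and IGF list 2 of 17 genes had a called mean effect, a share near the 12.6% of all genes tested: Irs2, an insulin receptor substrate, rose (mean 0.79 (SE 0.15, adjusted p = 0.00514)) and Igfbp5, an IGF carrier, fell (mean -1.01 (SE 0.27, adjusted p = 0.0255)).

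**Figure D3:**
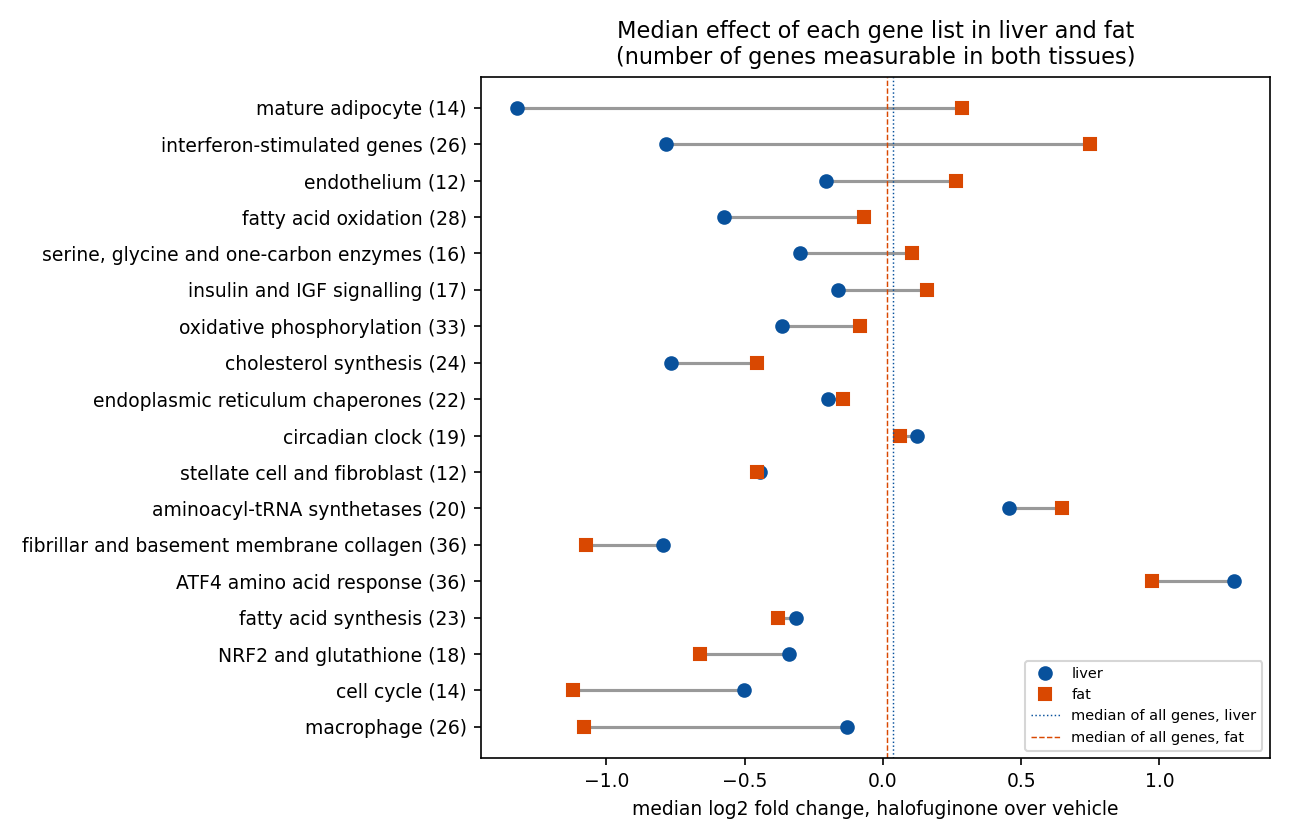
Median log2 fold change of halofuginone over vehicle for each gene list in liver (circles) and fat (squares), with the number of measurable members in brackets and vertical lines at the medians of all genes. The ATF4 and synthetase lists lie to the right and the collagen list to the left in both tissues, while the adipocyte and interferon lists lie to the left in liver and to the right in fat.

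The contrast was then set against the vehicle level of each gene in the 2 tissues. Genes were grouped by the ratio of vehicle fat to vehicle liver CPM, which depends on the scaling, as TMM factors were 0.682 to 0.875 in liver and 1.59 to 1.73 in fat. Called contrasts were more frequent where the tissues differed most: 3.88% of the 438 genes more than 8-fold higher in liver, 0.935% of the 1818 genes 2- to 8-fold higher in liver, and 0.549% of the 6374 genes within 2-fold. On the other side were 2.06% of the 1944 genes 2- to 8-fold higher in fat and 3.55% of the 592 genes more than 8-fold higher in fat. Among the 40 calls in genes 2- to 8-fold higher in fat, 31 were negative. The median contrast went from 0.28 through 0.15, -0.05 and -0.15 to -0.16 over these 5 groups.

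That slope shares libraries with its own x axis. The Spearman correlation of the contrast with the vehicle ratio was -0.227 over 11166 genes (-0.222 with FPKM levels), and the vehicle libraries enter the 2 quantities with opposite sign. With genes grouped by the mean of both arms the correlation was -0.0719 and the group medians were 0.09, 0.05, -0.05, -0.06 and 0.07. The shares called hardly moved, at 3.76%, 1.19%, 0.61%, 1.93% and 3.04%, so the higher rate of calls at both ends was present under both groupings and the slope was present with vehicle levels only. Across tissues, where effect and level share no library, the liver effect had a Spearman correlation of -0.114 with the vehicle level in fat, and the fat effect one of 0.00184 with the vehicle level in liver. All of these are descriptions over genes of the same libraries.

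By tissue and vehicle level, genes more than 8-fold higher in liver had a median effect of -0.39 in liver and -0.14 in fat. Genes more than 8-fold higher in fat had -0.22 in liver and -0.36 in fat. Grouped by the mean of both arms, the medians were -0.28 and -0.20 in the first set and -0.31 and -0.25 in the second, liver first. Which tissue fell more among genes more abundant in fat thus depended on the grouping. Fat calls were concentrated in genes more than 8-fold higher in fat. By vehicle levels, 57 of these 592 genes fell in fat and 0 rose, a share called of 9.63% against 1.38% of genes within 2-fold. By the mean of both arms, 45 of 559 fell and 5 rose, a share of 8.94% against 1.37%. The absence of increases was thus seen with vehicle levels only. At the low end, the 152 genes under 1 CPM in vehicle liver that passed 1 CPM in treated liver had a median liver effect of 0.91 by that selection, and the 6 called among them, Asns included, had negative contrasts.

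**Figure D4:**
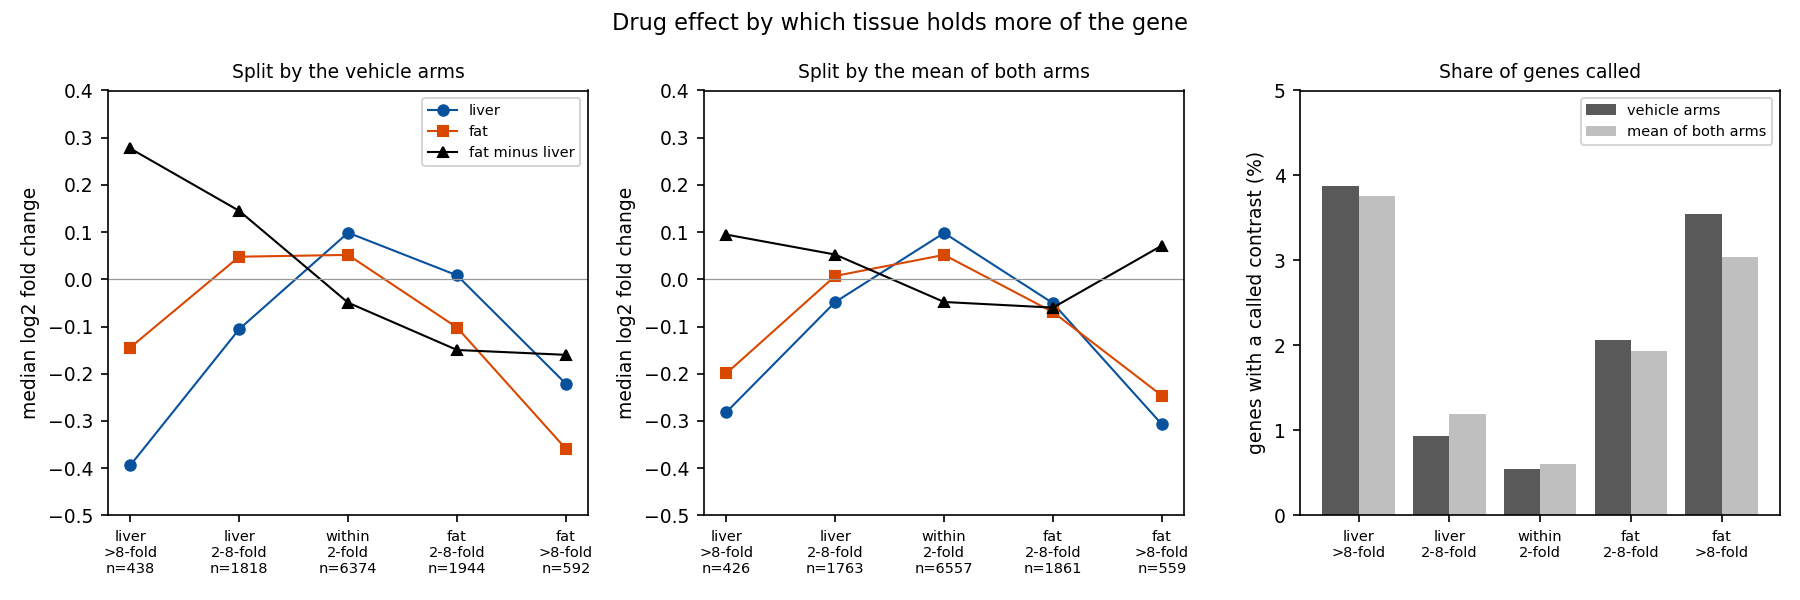
Left and middle, median log2 fold change in liver, in fat and for fat minus liver in 5 groups of genes ordered from more than 8-fold higher in liver to more than 8-fold higher in fat, grouped by vehicle arms (left) or by the mean of both arms (middle); right, percentage of genes with a called contrast in each group under both groupings. The median contrast falls from 0.28 to -0.16 in the left panel and stays between -0.06 and 0.09 in the middle one, while the bars are lowest for genes within 2-fold under both groupings.

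Whether levels in the tissues were closer under the drug depended on the direction of the contrast. The absolute log2 ratio of fat to liver was smaller in treated than in vehicle libraries for 72 of the 130 called genes (55.4%), compared with 52.8% of all 11166 genes (60.3% with library size alone). Among negative contrasts it was smaller for 64.4%, and the median absolute log2 ratio went from 2.08 to 1.11, as in Asns and Psat1. Among positive contrasts it was smaller for 43.9%. It was larger in Cfd, Plin4 and Ntrk2, which were already more abundant in fat and became scarcer in liver. By class the share was 65.1% in the fat-limited, 37.8% in the liver-limited and 47.8% in the opposite genes. The vehicle libraries enter both the class and the ratio, so these shares carry no test. Leaving out 1 library gave 39.4% to 55.1% among the genes then called.

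How many genes were called depended on single libraries. The count of 141 became 1053 without treated liver replicate 1 and fell by more than 1.5 times when any of 12 others was left out. It was 72, 39, 55, 43 and 63 without vehicle liver replicates 1 to 5 and 34, 62 and 54 without treated liver replicates 3, 4 and 5. It was 77 and 75 without vehicle fat replicates 1 and 3, and 55 and 41 without treated fat replicates 1 and 2. Of the 141 genes, 28 were called in each of the 16 fits with a library left out. They were 10 fat-limited genes (among them Csf1r, C1qa, C1qc, Hfe and F5), 9 liver-limited ones (among them Cidea, Ntrk2, Plin4, Lepr and Hspa1b), 7 opposite (among them Cfd, H2-Q10, Stab1, Ralgapa2 and Dock5), Lgals1, and Themis, which is under 1 CPM in 1 tissue. The classes moved as well: without treated liver replicate 1 there were 149 opposite, 589 liver-limited, 142 fat-limited and 78 unequal genes. No called gene changed the sign of its contrast under any alternative in which it was tested.

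**Figure D5:**
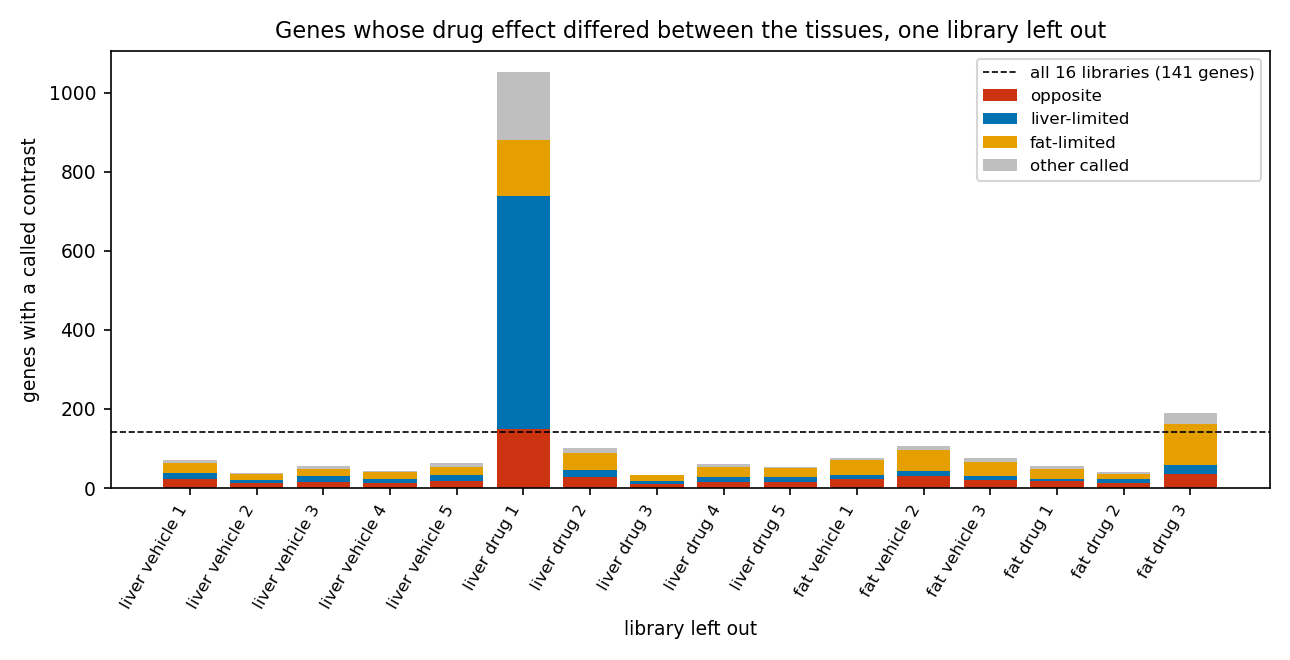
Number of genes with a called contrast when 1 of the 16 libraries is left out, stacked by class, with a dashed line at the 141 genes called with all libraries. The bar without treated liver replicate 1 reaches 1053 genes and the bar without treated fat replicate 3 reaches 189, while the other bars lie at 34 to 105.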

How the data were processed

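Poly(A)-selected RNA of liver and white adipose tissue was sequenced. The deposited tables give whole-number counts per gene and library, 1 table per tissue, and FPKM values made by the authors, per the file headers; the submitters' processing notes name fastp 0.18.0, Bowtie2 2.2.8, HISAT2, StringTie 1.3.1, RSEM and build mm39, with no role stated. Annotation, read counting rules and strand are not given in the sources used here. Both tables were joined on gene ID (22322 genes, 22267 with a symbol), every count column was mapped to a library by its name (0 columns unmapped), and groups follow the sample titles. No 2 libraries agreed within counting noise.

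The counts of all 16 libraries entered 1 edgeR fit (edgeR 4.0.16, limma 3.58.1, R 4.3.3: filterByExpr, TMM, glmQLFit, glmQLFTest) with 4 groups, from which the liver effect, the fat effect, their mean and their difference were tested, each with Benjamini-Hochberg adjustment over 14853 genes. Named genes were the largest contrasts in each direction with at least 5 CPM in both tissues, the largest members of each class (for limited classes with under 0.5 log2 in the other tissue), a short list of fixed genes, and up to 4 genes per list. The rule, the lists and the comparison itself were chosen with earlier results of these data known. The procedure was run on simulated counts that had the same spread per gene in both tissues and no library that stood apart. That run therefore does not cover these features of the data. Alternatives were other scalings, filters and tools (DESeq2 1.42.0, limma-voom, limma on log2 of FPKM with a pseudocount of 1 or 0.1), a replicate block, tissues fitted alone, levels from both arms and each library left out. Leaving out both libraries that stand apart was chosen after seeing the data.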

Additional observations from a re-analysis of the deposited data

Results flagged for a closer look

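Of the genes named by the rule, 31 had a drug effect that differed between fat and liver by the test of the contrast. The log2 contrast was positive for Cfd (10.82), Cidea (9.68), Ntrk2 (4.30), Plin4 (3.71), Atp6v0d2 (3.68), Mreg (3.19), Hspa1a (3.19), Mogat1 (2.97), F5 (2.93), Cd86 (2.35), Adamts9 (2.24), H2-Q10 (2.17), Tead1 (2.14) and G0s2 (2.03). It was negative for Rap1gap2 (-4.83), Asns (-4.70), Psat1 (-4.58), Gys2 (-3.42), Col15a1 (-3.23), Col6a6 (-3.21), Arhgef2 (-2.68), Mamdc2 (-2.57), Tfr2 (-2.34), Csf1r (-1.90), Mknk1 (-1.78), Adgre1 (-1.53), Itga5 (-1.42), Ralgapa2 (-1.39), Dock5 (-1.21), Parp4 (-1.18) and Slco2a1 (-1.06).

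In 9 of the 97 groups of 5 libraries examined, 1 library lay far from the rest, its gap to the nearest library exceeding 0.71 of the whole range; chance gives about 1 in 20. Of the 9, 3 were treated liver replicate 1: Arhgef2 at 8.81 CPM (next library 63.9), Eprs at 144 CPM (next 399.9) and Plin4 at 14.0 CPM (next 4.03). In each of these the library lay toward the vehicle level. Treated liver replicate 2 was high for Col6a6 (5.37 CPM, next 2.23) and Slc7a5 (30.2 CPM, next 8.93), and treated liver replicate 4 was low for Mogat1 (0.210 CPM, next 0.552). In vehicle liver, replicate 2 was high for Asns (1.82 CPM, next 0.817) and Cfd (41.1 CPM, next 17.4), and replicate 3 for Tead1 (33.3 CPM, next 20.5).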

How the results depend on the processing

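Leaving out each library in turn gave 34 to 1053 genes with a called contrast, 847 to 3431 with a called mean effect, 1006 to 4070 called in liver and 48 to 664 in fat, 229 to 851 same-direction, 9 to 149 opposite, 6 to 589 liver-limited and 12 to 142 fat-limited genes. The correlation of the contrast with the vehicle ratio ran from -0.269 to -0.199, that of the liver effect with the fat level from -0.124 to -0.0958, that of the fat effect with the liver level from -0.0189 to 0.0267, and the share with a smaller ratio from 39.4% to 55.1%. With both libraries that stand apart left out (chosen after seeing the data), 1126 contrasts, 3438 mean effects, 4474 liver and 703 fat effects were called, with 1197 same-direction, 248 opposite, 494 liver-limited and 196 fat-limited genes and the 3 correlations at -0.251, -0.102 and -0.0185. DESeq2 called 686 contrasts and 952 fat effects (165 liver-limited, 265 fat-limited genes). Limma-voom with a weight per tissue called 29 contrasts, 862 mean, 3394 liver and 164 fat effects (4 opposite, 10 liver-limited, 10 fat-limited). Limma on log2(FPKM + 1) called 375 contrasts and 811 fat effects, with 148 fat-limited genes. A bound of 1 on the absolute log2 value left 418 mean and 756 liver effects and 68 same-direction genes, a stricter filter gave 97 fat-limited genes, fat fitted alone gave 0 calls, and levels from both arms gave a correlation of -0.0719. The causes were not tested. Other scalings, filters and the robust fit kept these counts within 1.5 times.

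Whether equal replicate numbers pair liver and fat could not be settled from the data. Deviations of same-numbered liver and fat libraries correlated at 0.142 to 0.258 in the 3 vehicle pairs and at -0.150 to 0.0731 in the 3 treated pairs. Vehicle fat replicate 2 correlated more with vehicle liver replicate 4 (0.277) than with its own number (0.143). Tissues of the same mouse need not deviate together, so low values do not exclude pairing. The vehicle values are a hint from the data, not from the design. With the number as a replicate block, 23 contrasts, 983 mean, 1397 liver and 100 fat effects were called, with 5 opposite, 6 liver-limited and 11 fat-limited genes; as a random block the fat calls were 703 and the contrasts 125. For single genes, 38 named contrasts kept their call in 686 of 1102 comparisons and lost it in 416, and 60 named mean effects kept their side in 1597 of 1738, with 108 losing and 33 gaining a call; 0 changed sign. Genes under 3 counts in a group are limited by depth.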

Other observations

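Other genes that kept their contrast call without any 1 library, named after their values were seen, add roles not described above. Oat, ornithine aminotransferase, which links ornithine with the glutamate semialdehyde from which proline is made, lay at 2249, 1819, 1603, 1735 and 1762 CPM in vehicle and 912, 543, 447, 686 and 582 CPM in treated liver. In fat, Oat was at 112, 125 and 105 CPM in vehicle and 116, 114 and 131 CPM in treated libraries (contrast 1.61, SE 0.29, adjusted p = 0.0207). It fell in liver, all 5 treated libraries lying under all vehicle libraries, while the arms overlapped in fat. Gprc5b, an orphan receptor, was lower in treated liver (1.87–4.22 against 0.201–0.727 CPM) and overlapped in fat (57.1–89.9 and 57.4–97.4 CPM). Gpc1, a cell-surface heparan sulfate proteoglycan, fell in fat from 57.4–81.0 to 14.8–20.6 CPM and overlapped in liver (34.6–56.7 and 29.3–38.9 CPM, contrast -1.67, SE 0.25, adjusted p = 0.00715).

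Themis, a T cell signalling protein, lay at 2.04–5.17 CPM in vehicle liver and at or under 3 counts in every treated liver library, at least 17.8-fold lower. In fat it lay at 0.382–0.925 and 0.242–0.421 CPM. Lymphocyte markers summed to 29.3 to 82.7 CPM in vehicle liver and 25.9 to 70.0 CPM in treated liver, so the arms overlapped for the list. Rgs7, a regulator of G protein signalling whose contrast call, unlike the others here, was kept in 3 of 16 fits, was at 0 in 4 of 5 vehicle liver libraries and at 0.0657–2.96 CPM in treated ones, at least 5.27-fold higher, with 1.71–5.01 and 1.65–4.63 CPM in fat.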
